A study of Arabidopsis thaliana with 8 samples.

Results

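The difference between 2 switches of secondary wall formation was measured as a contrast: the estradiol effect in VND7XVE protoplasts minus the estradiol effect in SND1XVE protoplasts. Protoplasts are plant cells freed of their walls, here from Arabidopsis thaliana. VND7 and SND1 are NAC transcription factors. XVE is an estradiol-responsive activation system, so each line carries 1 factor as an inducible switch. The 4 groups were VND7XVE cells given cycloheximide and estradiol, VND7XVE cells given cycloheximide alone (control), SND1XVE cells given cycloheximide and estradiol, and SND1XVE cells given cycloheximide alone (control). Each group had 2 arrays, and the contrast used all 8 arrays of the series. Cycloheximide, which blocks protein synthesis, was therefore present in every group, controls included. No group without a switch received estradiol, so a response to the hormone and a response to the switch cannot be told apart within a line, although a response equal in both lines cancels in the contrast. The labels give no promoter, dose, time or number of cells, and nothing says that replicates were separate cultures, so p-values measure only the spread between these arrays.

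As background, VND7 directs the formation of xylem vessels, the water-conducting cells that die and leave patterned, lignified wall tubes, and SND1 directs fibres, the supporting cells with evenly thickened walls. Both walls are built of cellulose, xylan and lignin. NAC switches of this family act on an overlapping set of wall genes, and vessels add a programme of cell death and of wall removal at the ends of the cell. Enzymes of the cell wall include those that build polymers, those that modify or cut them, such as pectin-digesting polygalacturonases, and peroxidases that couple lignin units.

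The measured value was the array signal, an intensity in arbitrary units, and log2 differences were taken after adding 16, which understates the change of weak genes. A difference above 0 means that the estradiol effect was higher in VND7XVE than in SND1XVE. It can come from a larger rise in VND7XVE or a larger fall in SND1XVE. Of 14768 probe sets tested, 452 (3.06%) had different effects in the 2 lines at an adjusted p under 0.05 (limma with Benjamini-Hochberg adjustment), and 1985 had an unadjusted p under 0.05. Effects were higher in VND7XVE for 291 (1.97%) and lower for 161 (1.09%). Among probe sets that name 1 gene, 174 of 8100 (2.15%) were higher and 80 (0.988%) were lower. The median difference over all tested probe sets was −0.03, with a middle range from −0.24 to 0.18 and a median standard error of 0.22. The count fell by more than 1.5 times when either VND7XVE estradiol array was left out: 232 probe sets were called without the first (160 higher, 72 lower) and 263 without the second (161 higher, 102 lower). The 161 lower calls also became 85 without VND7XVE control 1, 97 without VND7XVE control 2 and 97 without SND1XVE estradiol 1.

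Among called probe sets, the 2 directions differed in size. The higher differences had a median of 1.58, with 120 of 291 at least 4-fold and 30 at least 16-fold, whereas the lower ones had a median of −0.93, with 12 of 161 at least 4-fold and 1 at least 16-fold. Mean control signals were under 100 units for 138 of the 291 higher probe sets (47.4%) and for 20 of the 161 lower ones (12.4%), compared with 22.7% over all tested. The shares and the sizes are in part fixed by the selection, since only called probe sets enter. A probe set under the filter on the controls was also tested only if it passed on estradiol arrays. The sizes describe the called probe sets, and nothing more is read from them or from the shares.

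**Figure D1:**
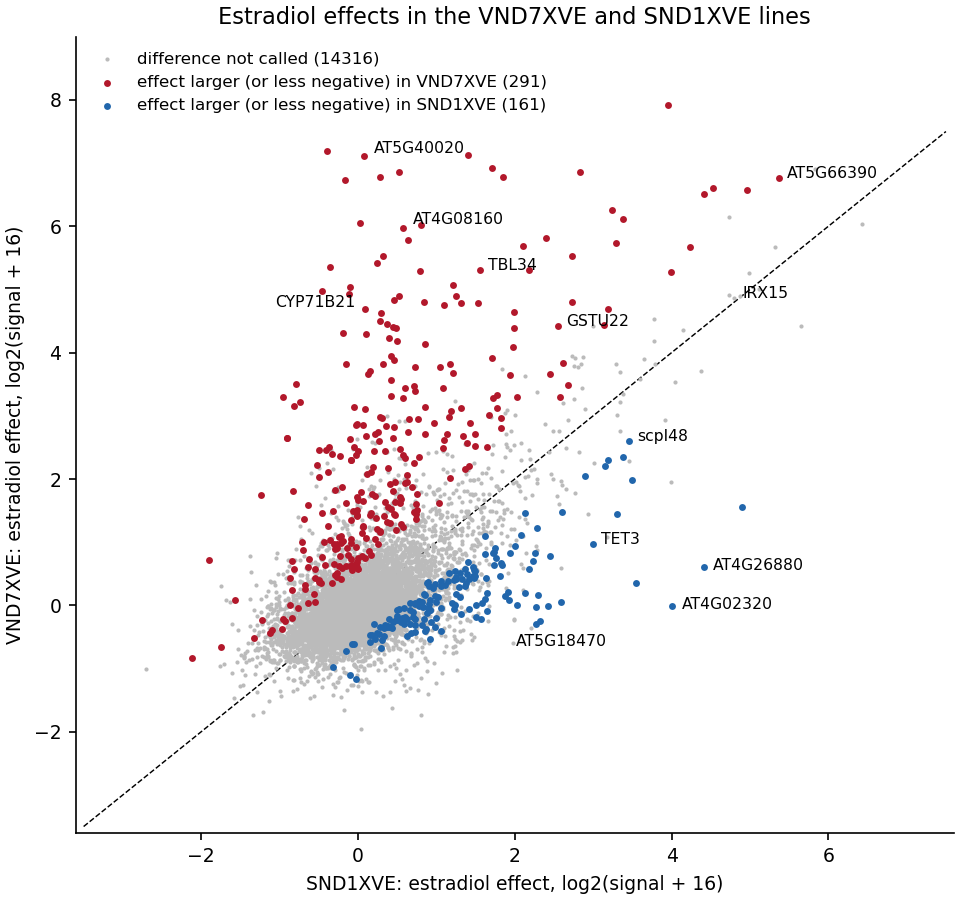
Estradiol effect in VND7XVE (vertical) against that in SND1XVE (horizontal), log2(signal + 16), for the 14768 tested probe sets; the dashed line marks equal effects. The 291 red points lie above the line and reach 7 and more on the vertical axis, and the 161 blue points lie below it and mostly between 0 and 4 on the horizontal axis.

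Most rises were not separated by the contrast. Of 700 probe sets called risen in both lines, 93 were higher in VND7XVE and 46 were lower, and 561 (80.1%) were not called different, which does not show that they were equal. Of 504 called risen in VND7XVE alone, 174 differed and 330 did not. Of 684 called risen in SND1XVE alone, 98 differed and 586 did not, so a rise that passed in 1 line alone was usually not a tested difference. The strongest rises were more often separated. Of 139 probe sets that rose at least 8-fold in VND7XVE, 98 were higher in VND7XVE. Of 51 that rose at least 8-fold in SND1XVE, 12 were higher in VND7XVE and 10 were lower. Among falls, 6 higher and 22 lower differences were called of 940 in VND7XVE (2.98%), 35 and 1 of 1043 in SND1XVE (3.45%), and 6 and 1 of 521 in both (1.34%), against 3.06% over all tested. For the effects themselves, 14.5% of all tested probe sets were called in VND7XVE (8.15% rises, 6.37% falls) and 16.4% in SND1XVE (9.37% rises, 7.06% falls). The fold in these counts is a description, since it belongs to the same contrast.

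**Figure D2:**
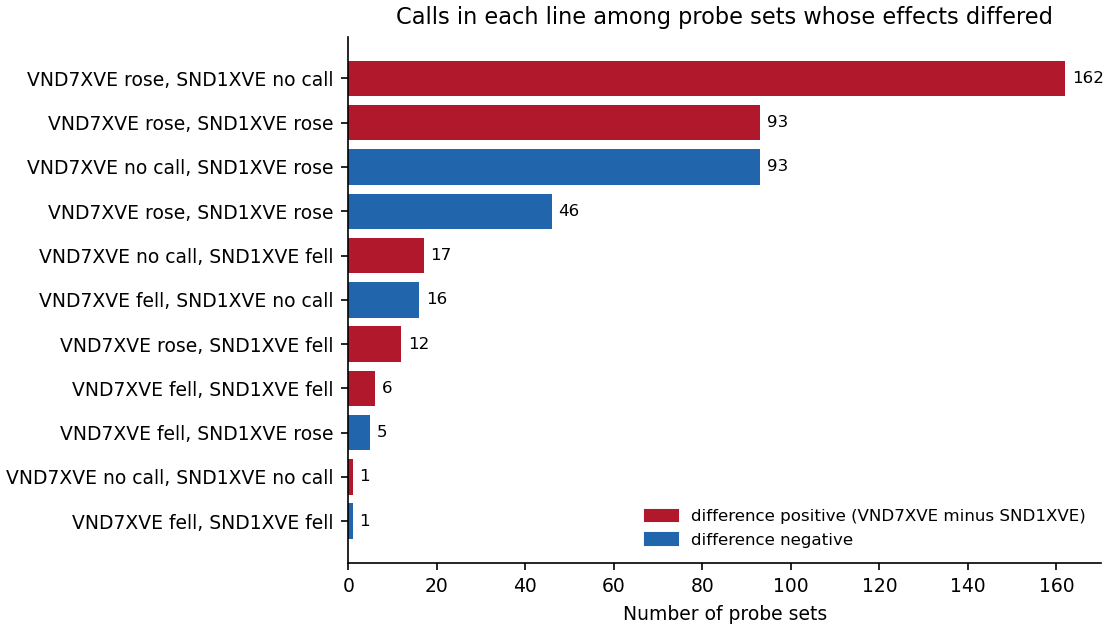
Number of the 452 called probe sets in each class of calls, by what each line did (VND7XVE first). Red bars are differences above 0 and blue bars below 0; the largest class, 162 probe sets, rose in VND7XVE with no call in SND1XVE, and 93 rose in SND1XVE with no call in VND7XVE.

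Genes that break down or modify pectin and xylan, the non-cellulose wall polymers, were described in lists chosen with earlier results known, and only members with a probe set naming 1 gene enter. Of 3 tested xylanases (5 named of 11 in the list), 1 was higher and 0 were lower (1.97% and 1.09% over all tested). AT1G10050 was not called (−0.17 ± 0.17 SE, adjusted p = 0.756). The called one was AT4G08160, of a family of xylan-cutting enzymes. It had signals of 1793 and 1844 on the VND7XVE estradiol arrays and 24.2 and 5 on the VND7XVE controls, and 37.2 and 40.5 on the SND1XVE estradiol arrays and 2.5 and 57.3 on the SND1XVE controls. Both VND7XVE estradiol arrays lay far above all other arrays, and the SND1XVE control arrays were far apart from each other. The difference was 5.41 ± 0.65 (SE, adjusted p = 8.19e-05). TBL34 belongs to a family that acetylates wall polymers, and its signals were 789.7 and 851 on the VND7XVE estradiol arrays and 4.2 and 5.8 on the VND7XVE controls, and 73.4 and 81.2 on the SND1XVE estradiol arrays and 6.2 and 28.9 on the SND1XVE controls. The VND7XVE estradiol arrays stood above the SND1XVE estradiol arrays, which in turn stood above both control groups. TBL34 rose in both lines, with a difference of 3.75 ± 0.46 (SE, adjusted p = 0.000104). TBL34 was the only one called of 13 tested members of the acetylation list (25 probe sets named), against 3.06% over all tested. The others ran from −1.34 to 1.41. Of the 13, 2 rose in VND7XVE (8.15% of all tested rose there) and 3 rose in SND1XVE (9.37%). Of the 21 genes of the xylan synthesis list, 4 were tested and 0 were called in either direction by limma, with 0 at an unadjusted p under 0.05. The median difference of the 4 was 0.04, against −0.03 over all tested.

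Polygalacturonases cut the pectin backbone. Of 17 tested members (42 probe sets named), 3 were higher in VND7XVE and 0 were lower (1.97% and 1.09% over all tested), with a median of −0.20. AT1G23460 was the largest, with signals of 7957 and 6958 on the VND7XVE estradiol arrays and 276 and 231 on the VND7XVE controls, and 122 and 154 on the SND1XVE estradiol arrays and 78.6 and 60.5 on the SND1XVE controls. All 4 VND7XVE arrays lay above the SND1XVE arrays, and the VND7XVE estradiol arrays lay far above the VND7XVE controls. It rose by 4.79 in VND7XVE and 0.85 in SND1XVE, a difference of 3.95 ± 0.23 (SE, adjusted p = 3.24e-08). AT1G70500 had signals of 16084 and 15644 on the VND7XVE estradiol arrays and 177 and 128 on the VND7XVE controls, and 634 and 632 on the SND1XVE estradiol arrays and 2.9 and 6.9 on the SND1XVE controls. The controls differed between the lines, and the rise was large in both. The difference was 1.61 ± 0.22 (SE, adjusted p = 0.000292) and depended on the constant added before the log, since it was −0.13 (adjusted p = 0.927) with 1 in place of 16, against a range of adjusted p up to 0.0109 over the fits that left out 1 array. AT3G61490 was called as well (1.59 ± 0.37 SE, adjusted p = 0.0235), but not without either VND7XVE estradiol array, either SND1XVE estradiol array, SND1XVE control 1 or VND7XVE control 2 (adjusted p 0.0612 to 0.143). AT1G65570, a further member, rose by 6.90 in VND7XVE and by 5.83 in SND1XVE and was not called different (1.08 ± 0.44 SE, adjusted p = 0.277, 95% interval 0.14 to 2.01); without VND7XVE control 1 it was (adjusted p = 0.0297).

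Pectin methylesterases remove methyl groups from pectin. Of 13 tested (44 named), 0 were higher and 1 was lower (1.97% and 1.09% over all tested). AT4G02320 had signals of 7.7 and 3.2 on the VND7XVE estradiol arrays and 10.5 and 1.4 on the VND7XVE controls, and 269 and 294 on the SND1XVE estradiol arrays and 2.4 and 2.5 on the SND1XVE controls. The SND1XVE estradiol arrays were high and all others at or near the low end of the scale. AT4G02320 passed the filter on low signals only with both SND1XVE estradiol arrays, so low signals elsewhere follow from the choice. The difference was −4.02 ± 0.67 (SE, adjusted p = 0.002). With 1 in place of 16 added before the log, the call was lost (adjusted p = 0.208). AT4G24430, of the family that cuts rhamnogalacturonan, the branched pectin, had signals of 1007 and 1051 on the VND7XVE estradiol arrays and 9.1 and 69.2 on the VND7XVE controls, and 54.9 and 23.9 on the SND1XVE estradiol arrays and 22.8 and 33.4 on the SND1XVE controls. Here the VND7XVE estradiol arrays were high, with a difference of 4.22 ± 0.60 (SE, adjusted p = 0.00045); the call was lost without the intensity trend (adjusted p = 0.0604). Pectate lyases (9 tested), expansins (7) and xyloglucan enzymes (5) had 0 called in either direction by limma, with 2, 1 and 1 at an unadjusted p under 0.05.

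Class III peroxidases oxidise phenolic compounds and include enzymes that couple lignin units. Of 22 tested (55 named), 5 were higher in VND7XVE and 0 were lower (1.97% and 1.09% over all tested), with a median of 0.17. AT4G36430 had signals of 2574 and 2200 on the VND7XVE estradiol arrays and 89.9 and 55.1 on the VND7XVE controls, and 125 and 53.8 on the SND1XVE estradiol arrays and 21.4 and 26.9 on the SND1XVE controls. The VND7XVE estradiol arrays lay far above the rest. The difference was 3.48 ± 0.40 (SE, adjusted p = 4.61e-05). AT5G51890 had signals of 654 and 899 on the VND7XVE estradiol arrays and 79.3 and 66.7 on the VND7XVE controls, and 35.4 and 33 on the SND1XVE estradiol arrays and 26.7 and 47.4 on the SND1XVE controls. It rose by 3.14 in VND7XVE, and in SND1XVE the effect was −0.05 (not called), a difference of 3.19 ± 0.37 (SE, adjusted p = 5.1e-05). AT5G66390 had signals of 11904 and 10377 on the VND7XVE estradiol arrays and 84.9 and 87.2 on the VND7XVE controls, and 1638 and 1564 on the SND1XVE estradiol arrays and 17.6 and 29.8 on the SND1XVE controls. Both lines rose steeply, and the VND7XVE estradiol arrays were the highest. The difference was 1.40 ± 0.21 (SE, adjusted p = 0.000749), and with 1 added in place of 16 the call was lost (adjusted p = 0.107). AT5G15180 passed at 2.89 ± 0.75 (SE, adjusted p = 0.0463) but lost its call in 7 of the 8 fits that left out 1 array, all but VND7XVE control 2 (adjusted p 0.0549 to 0.261). AT5G15180 also passed the filter on low signals on only 2 arrays, so it was tested through those arrays alone. Prx37 differed in kind, since it fell in SND1XVE (−0.86) and had an effect of 0.01 in VND7XVE. Its signals were 240.5 and 228 on the VND7XVE estradiol arrays and 245 and 219 on the VND7XVE controls, and 582 and 694 on the SND1XVE estradiol arrays and 1199.6 and 1142 on the SND1XVE controls, so the SND1XVE arrays were above the VND7XVE arrays with and without estradiol. Its call (0.88 ± 0.19 SE, adjusted p = 0.0166) was lost without either VND7XVE estradiol array, VND7XVE control 2, SND1XVE estradiol 1 or SND1XVE control 1 (adjusted p 0.0523 to 0.0843). Of the 19 genes of the lignin monomer list, 3 were tested and 0 were called by limma, with 0 at an unadjusted p under 0.05. The secondary wall cellulose list (8 genes) had 0 named, and the laccase list (17) had 0 tested. The wall transcription factor list (39) had 1 tested, which was not called. Most genes of these lists were therefore not examined.

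**Figure D3:**
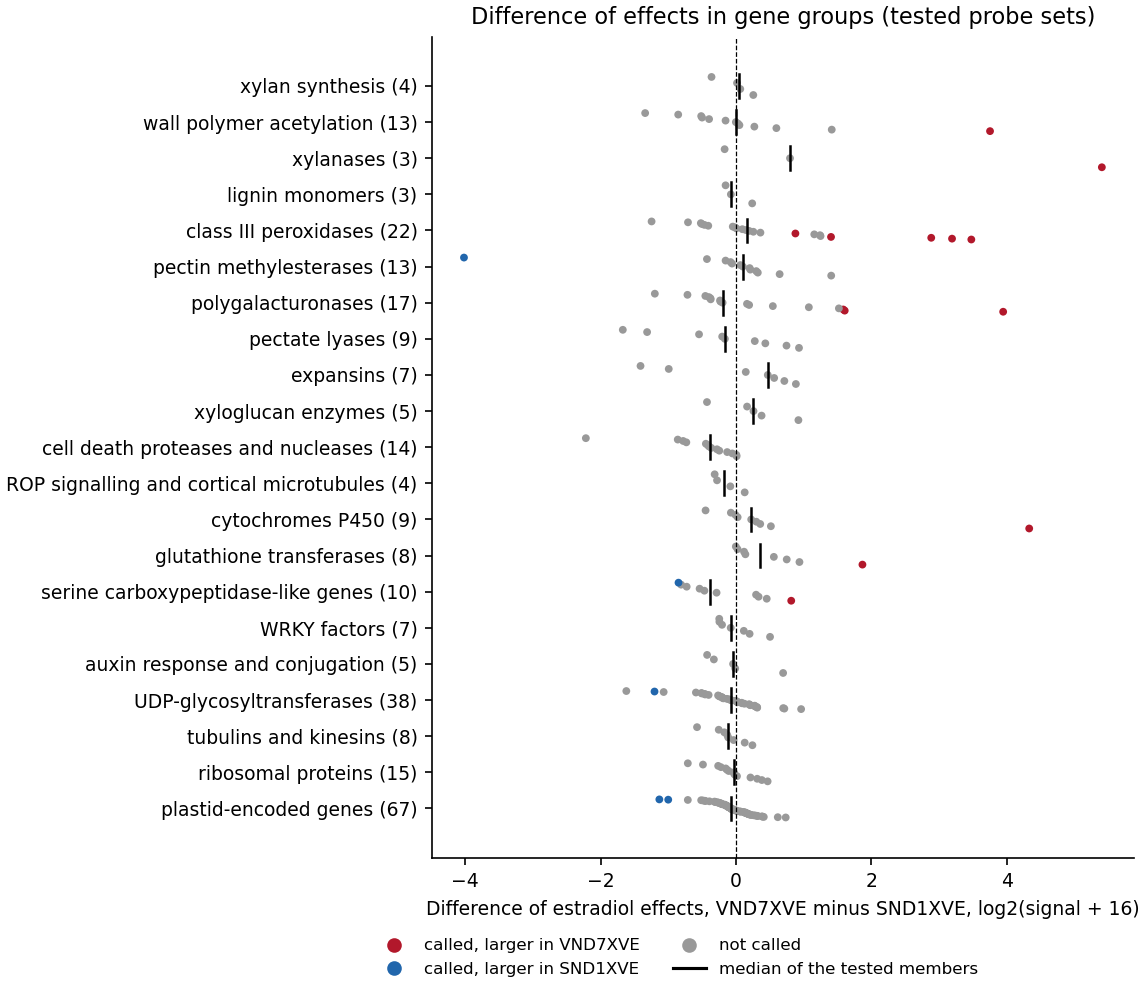
Difference of the estradiol effects (VND7XVE minus SND1XVE, log2(signal + 16)) for the tested members of each list with at least 3, with the number tested in brackets; black bars are medians. Red points are called higher in VND7XVE, blue lower, and grey not called; the medians lie within 0.5 of 0 in every list shown apart from xylanases, at 0.80.

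Members of several enzyme families were among the called genes. CYP71B21, a cytochrome P450, had signals of 1891 and 1908 on the VND7XVE estradiol arrays and 62 and 61.5 on the VND7XVE controls, and 81.6 and 96.7 on the SND1XVE estradiol arrays and 71.9 and 67.7 on the SND1XVE controls. The VND7XVE estradiol arrays agreed closely and lay far above all others. The difference was 4.33 ± 0.25 (SE, adjusted p = 3.24e-08), and CYP71B21 was the only one of 9 tested P450 genes (23 named) called, against 3.06% over all tested probe sets. GSTU22, a tau class glutathione transferase that conjugates glutathione to small molecules, had signals of 11869.8 and 11074 on the VND7XVE estradiol arrays and 537 and 502 on the VND7XVE controls, and 6531 and 5519.5 on the SND1XVE estradiol arrays and 1087 and 934 on the SND1XVE controls. It rose in both lines, by 4.42 in VND7XVE and 2.56 in SND1XVE, and the VND7XVE estradiol arrays were the highest although the VND7XVE controls were below the SND1XVE controls. The difference was 1.87 ± 0.16 (SE, adjusted p = 2.01e-06), and 1 of 8 tested members of the glutathione transferase list was called, against the same 3.06%. AT3G62160, of a plant acyltransferase family, had signals of 502 and 624 on the VND7XVE estradiol arrays and 50.3 and 36.1 on the VND7XVE controls, and 16 and 29.1 on the SND1XVE estradiol arrays and 52.1 and 64 on the SND1XVE controls. It rose in VND7XVE and fell in SND1XVE, with a difference of 4.25 ± 0.39 (SE, adjusted p = 4.81e-06). The fall in SND1XVE was between weak signals, of 64 units or less. Among serine carboxypeptidase-like genes, 1 of 10 tested was higher and 1 was lower (1.97% and 1.09% over all tested). The lower one, scpl48, had signals of 16875 and 15302 on the VND7XVE estradiol arrays and 2503 and 2742 on the VND7XVE controls, and 5548 and 6217 on the SND1XVE estradiol arrays and 509 and 531 on the SND1XVE controls. It rose in both lines and was highest on the VND7XVE estradiol arrays, but SND1XVE started lower and rose by more (3.46 against 2.61 in VND7XVE), a difference of −0.85 ± 0.14 (SE, adjusted p = 0.00221); the call was lost without the intensity trend (adjusted p = 0.0798). The higher one, scpl20, rose in both (0.82 ± 0.17 SE, adjusted p = 0.0118) but lost its call without either VND7XVE estradiol array, VND7XVE control 1 or SND1XVE estradiol 2 (adjusted p 0.0582 to 0.0737). UGT76B1, a glucosyltransferase of plant defence, was the only one of 38 tested UDP-glycosyltransferases called (2.63%, near the 3.06% over all tested), with a difference of −1.20 ± 0.26 (SE, adjusted p = 0.0141); its call was lost without either VND7XVE estradiol array, VND7XVE control 2, SND1XVE estradiol 1 or SND1XVE control 2 (adjusted p 0.0505 to 0.0879).

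Among the largest differences above 0 were genes of other families. They were chosen by the size of the contrast, and AT5G40020, AT1G10810, AT4G18425, AT1G13920 and AT5G25470 passed the filter on low signals only with both VND7XVE estradiol arrays, so low signals elsewhere follow from the choice. AT5G40020, of the thaumatin family, had the largest difference among named genes, with signals of 2572 and 3094 on the VND7XVE estradiol arrays and 4.6 and 4.4 on the VND7XVE controls, and 7.6 and 5.9 on the SND1XVE estradiol arrays and 7.6 and 3.7 on the SND1XVE controls. Its other 6 arrays were at the low end of the scale. AT1G10810, of the aldo/keto reductase family, had signals of 787 and 789 on the VND7XVE estradiol arrays and 2.4 and 3.3 on the VND7XVE controls, and 10.1 and 11.2 on the SND1XVE estradiol arrays and 7.8 and 5.4 on the SND1XVE controls. AT4G18425, a small membrane protein of the DMP family, had signals of 2126 and 2454 on the VND7XVE estradiol arrays and 23.3 and 28.1 on the VND7XVE controls, and 22.4 and 29.8 on the SND1XVE estradiol arrays and 5.7 and 17.6 on the SND1XVE controls. AT3G10590, of a MYB-related family, had signals of 5011 and 4389 on the VND7XVE estradiol arrays and 12.5 and 48.7 on the VND7XVE controls, and 50.8 and 66.2 on the SND1XVE estradiol arrays and 4.1 and 5 on the SND1XVE controls. In each of the 4 the VND7XVE estradiol arrays lay far above all others. The differences of the last 3 were 5.18 ± 0.52 (SE, adjusted p = 1.12e-05), 5.15 ± 0.39 (SE, adjusted p = 4.7e-07) and 4.93 ± 0.43 (SE, adjusted p = 2.43e-06). AT1G13920 of the remorin family (4.30 ± 0.55 SE, adjusted p = 0.000153) and AT5G25470 of the B3 DNA-binding family (3.96 ± 0.64 SE, adjusted p = 0.00153) were also highest on the VND7XVE estradiol arrays, at lower signals. The signals of AT5G25470 were 205 and 184 on the VND7XVE estradiol arrays and 1.9 and 12.6 on the VND7XVE controls, and 2.2 and 13.4 on the SND1XVE estradiol arrays and 19 and 26.9 on the SND1XVE controls.

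**Figure D4:**
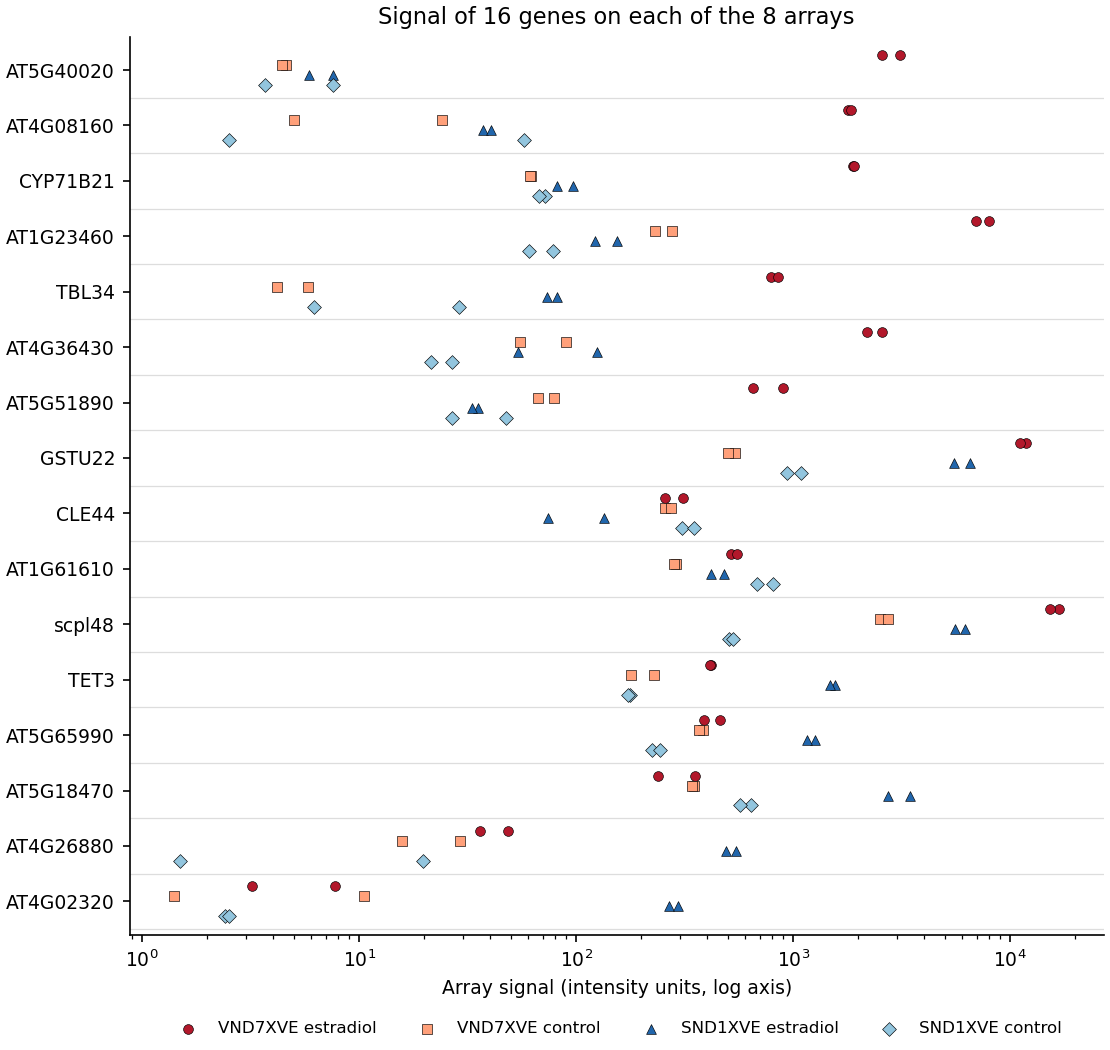
Signal of 16 genes on each array (log axis), with the groups of each gene from top to bottom VND7XVE estradiol, VND7XVE control, SND1XVE estradiol and SND1XVE control. The first 8 genes, from AT5G40020 to GSTU22, are highest on the VND7XVE estradiol arrays, and the last 3 are highest on the SND1XVE estradiol arrays.

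Called differences toward the larger effect in SND1XVE were mostly moderate in size, with 12 of 161 probe sets at least 4-fold. AT5G65990, of an amino acid transporter family, had signals of 389.9 and 459 on the VND7XVE estradiol arrays and 386 and 367 on the VND7XVE controls, and 1263 and 1163 on the SND1XVE estradiol arrays and 224 and 243 on the SND1XVE controls. The SND1XVE estradiol arrays were the highest and the SND1XVE controls the lowest. The effect was 0.16 in VND7XVE (not called) and 2.30 in SND1XVE, a difference of −2.14 ± 0.19 (SE, adjusted p = 2.98e-06). TET3, a tetraspanin of the plasma membrane, had signals of 417 and 415 on the VND7XVE estradiol arrays and 179.8 and 229.5 on the VND7XVE controls, and 1557 and 1479 on the SND1XVE estradiol arrays and 178 and 174 on the SND1XVE controls. It rose in both lines but by more in SND1XVE, a difference of −2.02 ± 0.20 (SE, adjusted p = 1.04e-05). AT3G56760, a kinase related to calcium-dependent protein kinases, had signals of 254 and 286 on the VND7XVE estradiol arrays and 256 and 267 on the VND7XVE controls, and 646 and 677 on the SND1XVE estradiol arrays and 172 and 256 on the SND1XVE controls. The SND1XVE estradiol arrays were above all other arrays, and the difference was −1.54 ± 0.24 (SE, adjusted p = 0.00102). AT5G18470, of a mannose-binding lectin family, had signals of 238 and 352 on the VND7XVE estradiol arrays and 350.1 and 342 on the VND7XVE controls, and 3455 and 2725 on the SND1XVE estradiol arrays and 637 and 570.3 on the SND1XVE controls. AT4G26880, of the STIG1 family of small secreted proteins, had signals of 48.5 and 36.2 on the VND7XVE estradiol arrays and 15.8 and 29.3 on the VND7XVE controls, and 544 and 489.9 on the SND1XVE estradiol arrays and 19.7 and 1.5 on the SND1XVE controls. In both the SND1XVE estradiol arrays were the highest of the 8. Calls at AT5G65990, TET3, AT3G56760, AT5G18470 and AT4G26880 were kept in all 19 alternatives. AT2G37070 was called (−2.53 ± 0.48 SE, adjusted p = 0.00572) but was lost without SND1XVE estradiol 2 (adjusted p = 0.0508) or VND7XVE estradiol 2 (adjusted p = 0.0522).

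Cysteine proteases and related nucleases, a list kept because vessels die as they mature, gave no called difference by limma. In either direction 0 of 14 tested were called (24 named of 54 in the list), with 4 at an unadjusted p under 0.05. XCP1 and XCP2, chosen as xylem vessel markers, had no probe set naming them, so the vessel death programme was examined only in part. Of the 14, 6 rose in SND1XVE (9.37% of all tested rose there) and 0 rose in VND7XVE (8.15%), and 12 of 14 differences were below 0, with a median of −0.38. GAMMA-VPE, a vacuolar processing enzyme that acts in cell death, rose in SND1XVE (0.62) and had an effect of 0.21 in VND7XVE (not called), with a difference of −0.42 ± 0.13 (SE, adjusted p = 0.13). Neither the count in 1 line nor the sign of the differences is a test of a difference between the lines. Of 67 tested plastid-encoded genes, 0 were higher and 2 were lower (2.99%), near the 3.06% called over all tested, so the count is no result about the plastid genes as a group. The signals of psbM, a subunit of photosystem II, were 15202 and 13245 on the VND7XVE estradiol arrays and 33237 and 30241 on the VND7XVE controls, and 13804 and 17501 on the SND1XVE estradiol arrays and 14345 and 17468 on the SND1XVE controls. The VND7XVE controls were the highest arrays, and the VND7XVE estradiol arrays were within the range of the SND1XVE arrays or below it, a difference of −1.13 ± 0.18 (SE, adjusted p = 0.000979); the call was lost without the intensity trend (adjusted p = 0.0919). The other was matK (−1.0 ± 0.26 SE, adjusted p = 0.044), whose call was lost in 6 of the 8 fits that left out 1 array, all but those without SND1XVE estradiol 1 and VND7XVE estradiol 2 (adjusted p 0.0956 to 0.255). Ribosomal proteins (15 tested), WRKY factors (7), tubulins and kinesins (8) and auxin genes (5) had 0 called by limma, with 1, 0, 1 and 1 at an unadjusted p under 0.05.

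A few genes moved in opposite directions. AT1G61610, of a lectin receptor kinase family, had signals of 518 and 550.5 on the VND7XVE estradiol arrays and 288 and 282 on the VND7XVE controls, and 419 and 480.4 on the SND1XVE estradiol arrays and 810 and 679 on the SND1XVE controls. It rose in VND7XVE and fell in SND1XVE, a difference of 1.58 ± 0.19 (SE, adjusted p = 8.95e-05), so the lines were closer together with estradiol than without it. AT1G67340, with a rise in VND7XVE and a fall in SND1XVE, had signals of 572 and 584 on the VND7XVE estradiol arrays and 331 and 368 on the VND7XVE controls, and 276 and 353 on the SND1XVE estradiol arrays and 576 and 572 on the SND1XVE controls. The difference was 1.55 ± 0.20 (SE, adjusted p = 0.000167). AT1G54120 ran the other way, with signals of 227 and 277 on the VND7XVE estradiol arrays and 346 and 346 on the VND7XVE controls, and 566 and 635 on the SND1XVE estradiol arrays and 363 and 378 on the SND1XVE controls. The VND7XVE estradiol arrays were the lowest and the SND1XVE estradiol arrays the highest, a difference of −1.11 ± 0.20 (SE, adjusted p = 0.0039).

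A difference can lie with estradiol or without it. Of the 291 higher probe sets, the line difference was larger in size on the estradiol arrays for 229 and on the control arrays for 62, and control means were within 1.5-fold of each other for 165. Of the 161 lower ones, 114 were larger on the estradiol arrays and 47 on the controls. For 18 of the 291 the SND1XVE estradiol arrays were nevertheless both above the VND7XVE ones, and for 11 of the 161 the VND7XVE ones were above. Prx37 is an example among those higher and scpl48 among those lower.

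**Figure D5:**
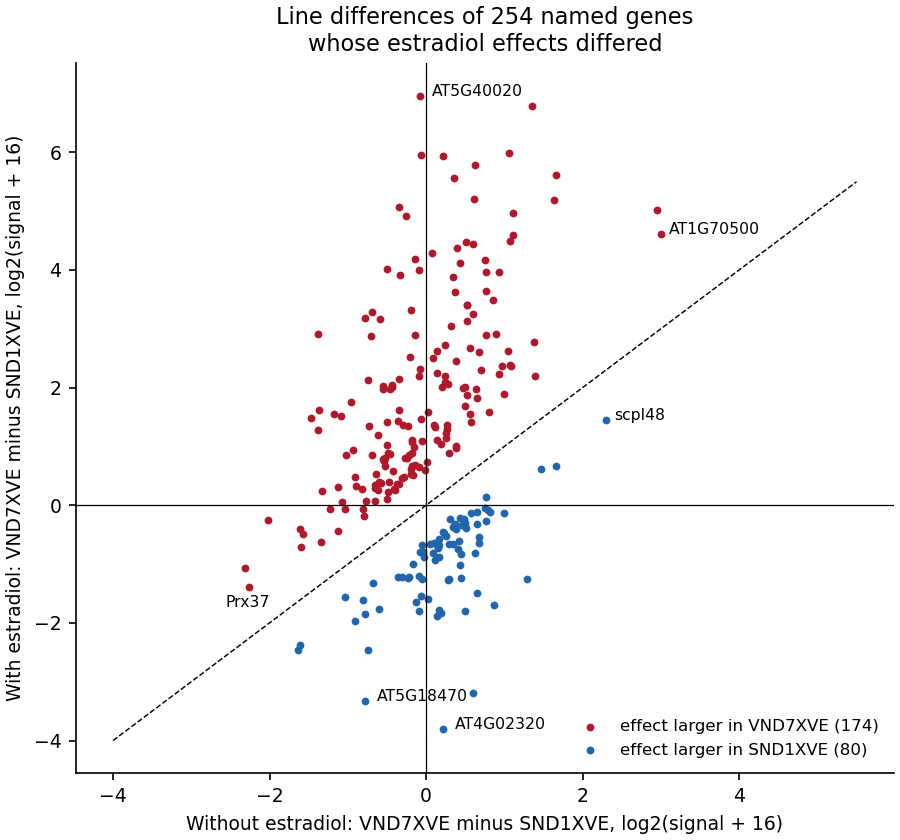
Line difference with estradiol (vertical) against line difference without it (horizontal) for the called probe sets that name 1 gene, 174 red and 80 blue, log2(signal + 16). Points above the dashed line have a difference of effects above 0; scpl48 and Prx37 lie where the estradiol arrays run against the sign of the contrast.

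Other facts of the arrays bear on these values. Array medians lay between 108.3 and 109.9 on the 4 estradiol arrays and between 98.95 and 102 on the 4 controls. The actin 3′ to 5′ probe ratio, a sign of RNA integrity, was 3.98 to 4.64 on VND7XVE estradiol, 3.72 to 4.16 on VND7XVE control, 3.21 to 3.30 on SND1XVE estradiol and 2.80 to 2.87 on SND1XVE control arrays, and the difference of effects on this ratio was −0.07 (log2). Its part in the results was not tested. Of 27 chosen cell type markers, 5 had a probe set naming them, and no xylem vessel or fibre marker did, so cell identity was not checked and the levels of SND1 and VND7 were not analysed here. Among the 5, RCA and LHCB4.1, mesophyll markers, had differences of −0.11 ± 0.15 (SE, adjusted p = 0.843) and −0.09 ± 0.14 (SE, adjusted p = 0.859). LHCB4.1 signals were nevertheless 5177.7 to 5600 on the VND7XVE arrays and 2559.4 to 2934.6 on the SND1XVE arrays, so the lines differed with and without estradiol. CLE44, which encodes the precursor of a peptide that acts on the cambium, had signals of 312 and 257 on the VND7XVE estradiol arrays and 258 and 272 on the VND7XVE controls, and 134 and 73.8 on the SND1XVE estradiol arrays and 308 and 350 on the SND1XVE controls. The SND1XVE estradiol arrays were the lowest, and the difference was 1.66 ± 0.30 (SE, adjusted p = 0.00361); without the intensity trend the call was lost (adjusted p = 0.0841). FMA and TRY, markers of guard cells and trichomes, had signals of 49.1 to 118.3 and of 5.7 to 68 over the 8 arrays. In bulk RNA, fewer cells of a type and less RNA per cell cannot be told apart. With 2 arrays a group, the number of arrays limits the precision.

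Neighbouring genes were called together in 5 of 2570 tested neighbour pairs, named after their values were seen. All 5 were higher in VND7XVE for both members. Over all probe sets naming 1 gene, 2.15% were higher and 0.988% were lower. Whether 5 pairs are more than these shares would give was not tested. AT5G59845, of the gibberellin-regulated family, had 1354 and 1202 on the VND7XVE estradiol arrays and 89.9 and 76.2 on the VND7XVE controls, and 15.1 and 24 on the SND1XVE estradiol arrays and 18.1 and 13.7 on the SND1XVE controls, and its neighbour AT5G59840 had 1076 and 1108 on the VND7XVE estradiol arrays and 494 and 529 on the VND7XVE controls, and 448 and 469 on the SND1XVE estradiol arrays and 409 and 447 on the SND1XVE controls. Their differences were 3.56 ± 0.35 (SE, adjusted p = 8.9e-06) and 0.97 ± 0.17 (SE, adjusted p = 0.00312). The other pairs were AT1G10800 with AT1G10810, AT3G14340 with AT3G14360, AT4G36430 with AT4G36440 and AT5G19870 with AT5G19875. Of their members, AT1G10800, AT1G10810 and AT5G19870 passed the filter on low signals on only 2 arrays, so they were tested through those arrays alone. In 3 of these pairs 1 member, AT3G14340, AT4G36440 or AT5G19875, lost its call without some arrays. AT3G14340 lost it without either VND7XVE estradiol array, SND1XVE estradiol 2 or SND1XVE control 1 (adjusted p 0.0605 to 0.112). AT4G36440 lost it without either VND7XVE estradiol array, VND7XVE control 2, SND1XVE estradiol 1 or SND1XVE control 2 (adjusted p 0.0522 to 0.137). AT5G19875 lost it without VND7XVE estradiol 2, either VND7XVE control, SND1XVE estradiol 1 or SND1XVE control 2 (adjusted p 0.0861 to 0.165).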

How the data were processed

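Total RNA of Arabidopsis protoplasts was hybridised to 8 Affymetrix arrays, 2 in each of 4 groups taken from the titles. The authors deposited 1 linear signal intensity per probe set and array. GCOS is the tool named in the submitters' processing notes, with no version or settings known here. The 2% trimmed mean was about 500.1 on each array, so values were used without further normalization. Sample columns left unused numbered 0.

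Probe sets were named from the platform annotation, updated through the TAIR10.1 RefSeq gene table, for names alone. Of 22746 probe sets outside 64 Affymetrix controls, 13513 named 1 gene (13436 matched the table), 503 named several and 8730 were not listed. Tests used log2(signal + 16) for the 14768 probe sets that exceeded their array's 40th percentile on 2 or more arrays. In R 4.3.3, limma 3.58.1 fitted the 4 group means, leaving 4 residual degrees of freedom, and moderated the variances with an intensity trend. Tests were two-sided, with Benjamini-Hochberg adjustment and a threshold of 0.05. Errors are moderated standard errors and intervals are 95%. Simulated data of this comparison (14768 probe sets, 200 changed) had independent normal errors, with the moderated variance of each probe set taken as true. There, 52% of 2-fold and 92% of 4-fold differences were recovered, and 12 of 156 calls were false. These rates hold for such errors and were not measured on the real arrays.

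Named genes were the 20 largest differences above 0 and the 15 largest below it, the 4 largest of each class of calls, called members of 31 lists (up to 8) with up to 3 others, 6 genes risen in both lines without a called difference, and cell type markers. Genes named outside the rule are said to be. Members and lists were chosen with earlier results of these data known. The cytochrome P450, tubulin and plastid lists were corrected after the files were seen, because their patterns took in other genes or missed members. Same-numbered arrays did not deviate together (correlations from −0.031 to 0.024), so the numbers were not treated as pairs. Alternatives changed the added constant, normalization, filter, variance model, block and probe sets, and left out each array in turn. Fits without 1 array kept the probe sets of the 8-array filter. Redoing the filter on 7 arrays was added after the results were seen, because it removes genes bright on only 2 arrays. Figures used Python 3.11.15, pandas 2.3.3 and matplotlib 3.10.9.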

Additional observations from a re-analysis of the deposited data

Results flagged for a closer look

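The contrast is itself a test of whether the lines differ, and it called 291 probe sets higher and 161 lower in VND7XVE than in SND1XVE. Among named genes, 8 were called in opposite directions in the lines, and 2 of them (AT3G56880 and AT5G03390) were looked up after their values were seen. AT3G62160 differed by 4.25, AT1G61610 by 1.58, AT1G67340 by 1.55, AT4G17215 by 1.24, AT3G56880 by 1.13 and AT5G03390 by 0.89, all with a rise in VND7XVE and a fall in SND1XVE. The fall of AT3G62160 in SND1XVE was between weak signals. AT5G12120 differed by −0.71 and AT1G54120 by −1.11, with a fall in VND7XVE and a rise in SND1XVE. The call of AT5G12120 was lost without VND7XVE control 1 (adjusted p = 0.0862) or VND7XVE estradiol 1 (adjusted p = 0.0785), within a range of 0.00772 to 0.12 over its alternatives. The calls of AT4G17215 and AT5G03390 were lost without the intensity trend (adjusted p = 0.0742 and 0.0597). No group held 4 or more arrays, so single arrays were not tested against their group.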

How the results depend on the processing

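Of 70 called genes named by the rule, 31 were called in all 19 alternatives, 3 more in all that gave a value, 35 lost the call somewhere, and AT1G70500 lost it with a constant of 1, where its value was −0.13 (adjusted p = 0.927) and no opposite difference was called. Of 73 not called, 6 were called in some alternative. The 452 called differences became 291 with no filter (196 higher, 95 lower), 226 without the intensity trend (168 and 58) and 249 over probe sets naming 1 gene, where fewer were tested. Leaving out 1 array gave 232 to 446, and 202 (without VND7XVE estradiol 1), 231 (without VND7XVE estradiol 2) and up to 446 with the filter redone on 7 arrays, where 16 of the 70 genes had no value in at least 1 fit. The 2144 VND7XVE calls became 1326 without the trend, 1115 over probe sets naming 1 gene, and 1231 to 2256 without 1 array (1237 and 1253 with the filter redone, without VND7XVE control 1 and VND7XVE estradiol 1). The 2427 SND1XVE calls became 1584, 1219 and 1611 to 2289 in the same order (1608 to 2296 with the filter redone). Median centring left 282 higher and 172 lower differences, but gave 1021 rises and 1938 falls in VND7XVE (1204 and 940 as reported) and 1089 rises and 1665 falls in SND1XVE (1384 and 1043 as reported). With the replicate block, 441 differences were called (424 within line), 2169 effects in VND7XVE and 2457 in SND1XVE. The cause of these shifts was not tested beyond the number of probe sets or arrays. Weak signals limit the folds of genes near the low end of the scale.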
